A study of Mus musculus with 12 samples.

Results

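The genes described here were 39 genes of DNA replication and mitosis, 16 and 23 respectively, chosen by name with earlier results of these data known. They were read from 12 single-colour arrays of mouse gonads at embryonic day E14.5. The arrays held 29182 genes, of which 18835 passed a filter on dim probes, and all 39 were among them. *Smad4* encodes the shared partner of the receptor-activated SMAD proteins, and *Stra8* is a gene induced in germ cells that enter meiosis. There were 3 arrays in each of 4 groups, each array from 1 pair of gonads. Control testes were *Smad4* flox/+ with *StellaMerCreMer* and *Stra8*+/-. Control ovary 1 had that same genotype, control ovary 2 was *Smad4* flox/+ *Stra8*+/- without Cre, and control ovary 3 was *Smad4* flox/flox *Stra8*+/- without Cre. *Smad4 (Stella)* ovaries were *Smad4* flox/flox with MerCreMer and *Stra8*+/-, and DKO (double knockout) ovaries had the same *Smad4* and Cre genotype with *Stra8*-/-. No group had both *Stra8* alleles intact. Tamoxifen was given at E9.5 and E10.5, the *Stella* element confines Cre to germ cells, and the study describes its efficiency as variable. Each array was of a whole gonad, so germ cells and somatic cells were measured together, and fewer cells of a type and less RNA per cell cannot be told apart.

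Before a cell divides, its genome is copied once. The MCM proteins are loaded on DNA as a helicase with the help of Cdc6 and Cdt1, geminin (*Gmnn*) holds Cdt1 back, ribonucleotide reductase and thymidylate synthase supply nucleotides, and Pcna, Fen1, Lig1 and the clamp loader work at the fork. In mitosis, cyclin B and the Plk1 and Aurora kinases drive entry, Bub1 and its partners guard chromosome attachment, and kinesins and their partners build the spindle and separate the daughter cells. At this stage germ cells of the fetal ovary enter meiosis, which begins with a round of DNA synthesis, whereas those of the fetal testis stop dividing without entering meiosis, and somatic cells of both gonads go on dividing.

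The promoters of both gene groups were searched for 3 motif types. Genes of both groups are known as targets of E2F and of the DREAM and MuvB complexes. An excess of such motifs was therefore foreseeable, and the counts are description only. RefSeq windows of build GRCm38.p6, from 250 bases before to 50 bases after the start, were found for 14 of the 16 replication genes and 19 of the 23 mitosis genes, and the first window listed for each gene was searched on both strands. E2F-type motifs (TTTCGCGC, TTTGGCGC or TTTCCCGC) stood in 6 replication windows and 0 mitosis windows, and in 1.91% of the first windows of all 27025 genes. CHR-type motifs (TTTGAA or TTCGAA) stood in 15 mitosis windows and 3 replication windows, and in 19.4% of all. In 14 of these 15 mitosis windows a CHR-type match began within 50 bases of the start, which was not counted over all genes. CCAAT was found in 17 mitosis windows, 8 replication windows and 37.9% of all. Among the matches in these windows, 2 pairs of E2F-type matches overlapped each other, 1 pair of CCAAT matches did so, and 1 E2F-type match overlapped a CCAAT. The windows below are shown because they belong to genes whose levels are described next, with E2F-type and CHR-type letters in capitals. *Mcm6* (chr1:128359656-128359955, minus strand) held 3 E2F-type matches and *Mcm7* (chr5:138171834-138172133, minus strand) held 2 and 1 CHR-type match, while *Plk1* (chr7:122159185-122159484, plus strand) and *Kif23* (chr9:61946750-61947049, minus strand) each held 1 CHR-type match.
Mcm6: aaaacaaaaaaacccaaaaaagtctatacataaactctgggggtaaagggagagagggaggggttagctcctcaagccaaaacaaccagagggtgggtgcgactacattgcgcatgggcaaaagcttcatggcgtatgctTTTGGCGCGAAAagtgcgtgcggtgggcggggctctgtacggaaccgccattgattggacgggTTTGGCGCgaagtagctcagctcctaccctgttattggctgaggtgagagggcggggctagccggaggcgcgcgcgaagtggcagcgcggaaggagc
Mcm7: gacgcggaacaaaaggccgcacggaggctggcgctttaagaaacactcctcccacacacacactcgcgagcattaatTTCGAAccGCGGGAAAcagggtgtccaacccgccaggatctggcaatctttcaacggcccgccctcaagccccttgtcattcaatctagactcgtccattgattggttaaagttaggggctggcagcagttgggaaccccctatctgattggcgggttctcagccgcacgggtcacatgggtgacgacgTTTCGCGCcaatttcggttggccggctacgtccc
Plk1: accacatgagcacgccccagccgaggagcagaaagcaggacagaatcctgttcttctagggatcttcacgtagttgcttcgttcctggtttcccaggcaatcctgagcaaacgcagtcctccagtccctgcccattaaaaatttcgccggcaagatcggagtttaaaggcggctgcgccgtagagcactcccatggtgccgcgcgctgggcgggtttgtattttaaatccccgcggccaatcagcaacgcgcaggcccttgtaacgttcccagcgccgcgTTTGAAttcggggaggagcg
Kif23: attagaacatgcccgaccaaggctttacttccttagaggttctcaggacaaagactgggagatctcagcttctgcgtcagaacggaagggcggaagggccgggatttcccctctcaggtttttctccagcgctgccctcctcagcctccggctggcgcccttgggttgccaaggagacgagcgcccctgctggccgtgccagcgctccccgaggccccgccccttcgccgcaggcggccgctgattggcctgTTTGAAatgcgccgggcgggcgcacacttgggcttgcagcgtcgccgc

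Levels are given as log2 of the processed spot intensity minus the 75th percentile of the array, so that 0 is that percentile, and a gene with several probes has their mean. The 39 genes had 60 probes. The filter left 54 of them, each well above background on all 12 arrays, and 26 genes rested on 1 probe. The 4 groups were fitted together in limma, and p was adjusted by Benjamini-Hochberg over the 18835 genes. Here "called" means an adjusted p under 0.05 together with a difference of 1.5-fold or more. The arrays lay on 3 slides. Slide 1 held the 3 control testes and control ovary 1, slide 2 held control ovaries 2 and 3 and DKO ovaries 1 and 2, and slide 3 held the 3 *Smad4 (Stella)* ovaries and DKO ovary 3. Between 58.8% and 70.6% of probes were well above background per array, with the lowest share in control ovary 1. *Stra8* was at -2.98 to -2.32 in control testes, 6.16 to 6.71 in control ovaries, 6.28 to 6.41 in *Smad4 (Stella)* ovaries and 5.28 to 5.61 in DKO ovaries, and *Smad4* was at 1.96 to 2.42 over all 12 arrays. Whether these probes lie in the deleted stretches was not settled from the sources used here, so that their signals do not check the genotypes.

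Control ovary 1 stood apart from the other 2 control ovaries in these genes. It was the highest of the 3 for 16 of 16 replication genes and 16 of 23 mitosis genes, while it was the highest for 35.5% of all genes. Its median excess over the mean of the other 2 was 0.44 on the log2 scale for the replication genes and 0.27 for the mitosis genes, and for all genes the median was -0.04. Of 40 other replication genes, a list also chosen with results of these data known, 34 were highest in it. The mean level over the 16 replication genes was 3.77 in control ovary 1 and 3.32 in both of the others. This sample alone among the control ovaries carried Cre, and it lay on another slide, so that sample, genotype and slide cannot be told apart. Counts of called members against control ovaries are given below with and without it. Medians, wider lists and the lists of other cells are given only with it.

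**Figure D1:**
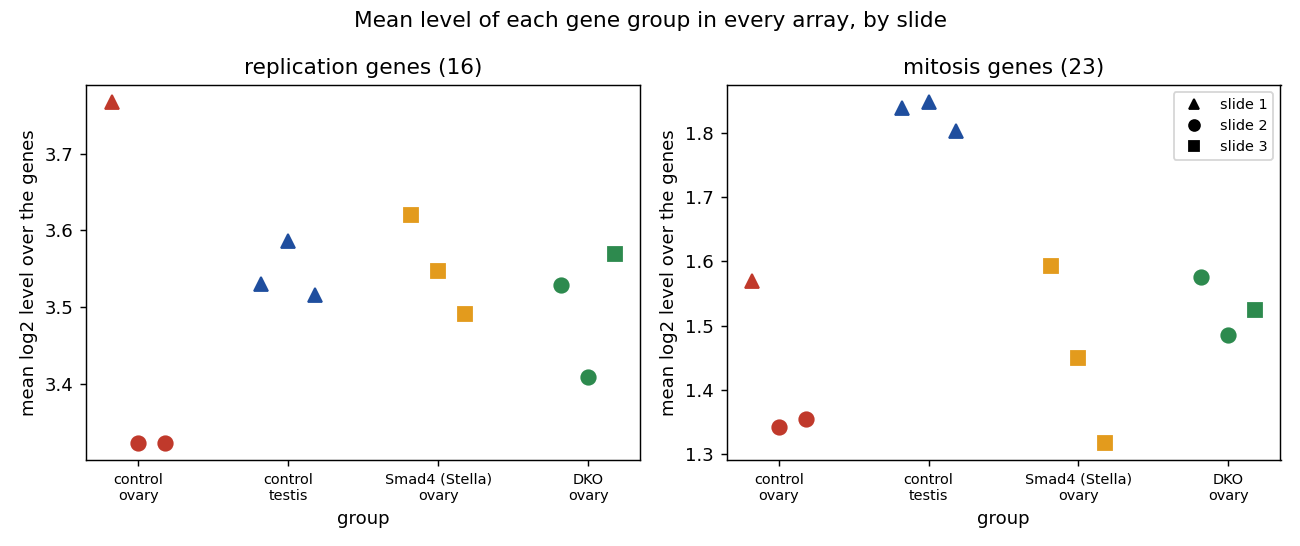
Mean log2 level over the 16 replication genes (left) and the 23 mitosis genes (right) in each of the 12 arrays, 1 point per array, with the slide as the shape of the point. Control ovary 1 was at 3.77 for replication genes, above every other array, and the 3 control testes were at 1.80 to 1.85 for mitosis genes, above every ovary.

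Control testes had higher levels of many mitosis genes than control ovaries. Of the 23 mitosis genes, 12 were called higher and 2 lower, where 17.2% of all genes tested were called higher and 16.8% lower. Of the 16 replication genes, 2 were called higher, *Mcm7* and *Rrm1*, and 1 lower, *Lig1*. The median log2 fold change was 0.60 over the mitosis genes, 0.01 over the replication genes and 0.02 over all genes. This comparison asks how gonads of the sexes differed when their germ cells had taken different paths.

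Cyclins and genes that act with the anaphase-promoting complex, which marks cyclin B for destruction, were called higher in testes for 4 of those named here. *Ccnb1*, the cyclin B1 subunit of the kinase that starts mitosis, was at 1.15, 1.22 and 1.39 in control testes and at 0.56, -0.18 and -0.10 in control ovaries 1 to 3. Every testis was above every ovary, and control ovary 1 was the nearest. Its log2 fold change was 1.16 (standard error 0.21, limma adjusted p = 0.00122, n = 3 arrays a group). *Ube2c*, the ubiquitin-conjugating enzyme of that complex, was at 2.24, 2.37 and 2.30 in testes and at 1.59, 1.26 and 1.39 in ovaries, a log2 fold change of 0.89 (standard error 0.11, limma adjusted p = 0.00012). *Ccna2* (cyclin A2) and *Cdc20*, an activator of the complex, were also called, with 0.85 and 0.83. *Ccnb2* was not, with 0.45.

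Among the mitotic kinases and checkpoint genes, *Plk1* (polo-like kinase 1) was at 3.54, 3.53 and 3.53 in testes and at 2.67, 2.40 and 2.39 in ovaries. The testes were nearly equal and all above the ovaries, and the log2 fold change was 1.05 (standard error 0.12, limma adjusted p = 5.14e-05). *Bub1b*, which encodes the checkpoint protein BubR1, was at 1.29, 1.52 and 1.59 in testes and at 0.87, 0.39 and 0.43 in ovaries, with no overlap and a log2 fold change of 0.90 (standard error 0.14, limma adjusted p = 0.000482). The Aurora kinases *Aurka* and *Aurkb* were called with 0.77 and 0.66. *Birc5* (survivin), a partner of Aurora B, had 0.05 and was not called, nor was the checkpoint kinase *Ttk*, with -0.21.

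*Bub1*, a checkpoint kinase, was called in the other direction. It was at 0.23, 0.03 and 0.32 in testes and at 0.99, 1.18 and 1.101 in ovaries, a log2 fold change of -0.90 (standard error 0.12, limma adjusted p = 0.000157). The testes were below all ovaries in this mean of 2 probes, but the probes, which the array ties to different RefSeq transcripts, differed. One, on chromosome 2 of mm9 from 127626988 to 127627047, gave -1.57 (adjusted p = 2.79e-06 from limma over probes). The other, from 127626326 to 127626385, gave -0.23 (adjusted p = 0.224), so the call rested on the former. The remaining called gene with a lower level was *Top2a* (topoisomerase II alpha), with -0.63, a call that held in 7 of 17 alternatives. Among others, its adjusted p missed the threshold without control ovary 1 and with the slide as a block, while the log2 fold change stayed at -0.63 and -0.64.

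Centromere and spindle genes were divided. *Cenpe* and *Cenpf*, kinetochore proteins, were called higher with 0.74 and 0.60, and *Kif20a* and *Prc1*, which act in cytokinesis, with 0.60 and 0.63. These calls held in 15, 11, 11 and 8 of 17 alternatives, in that order. *Cenpa*, the centromeric histone, had 0.15, the spindle motor *Kif11* had -0.10, and *Mki67*, which encodes the proliferation antigen Ki-67, had 0.43, all without a call.

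**Figure D2:**
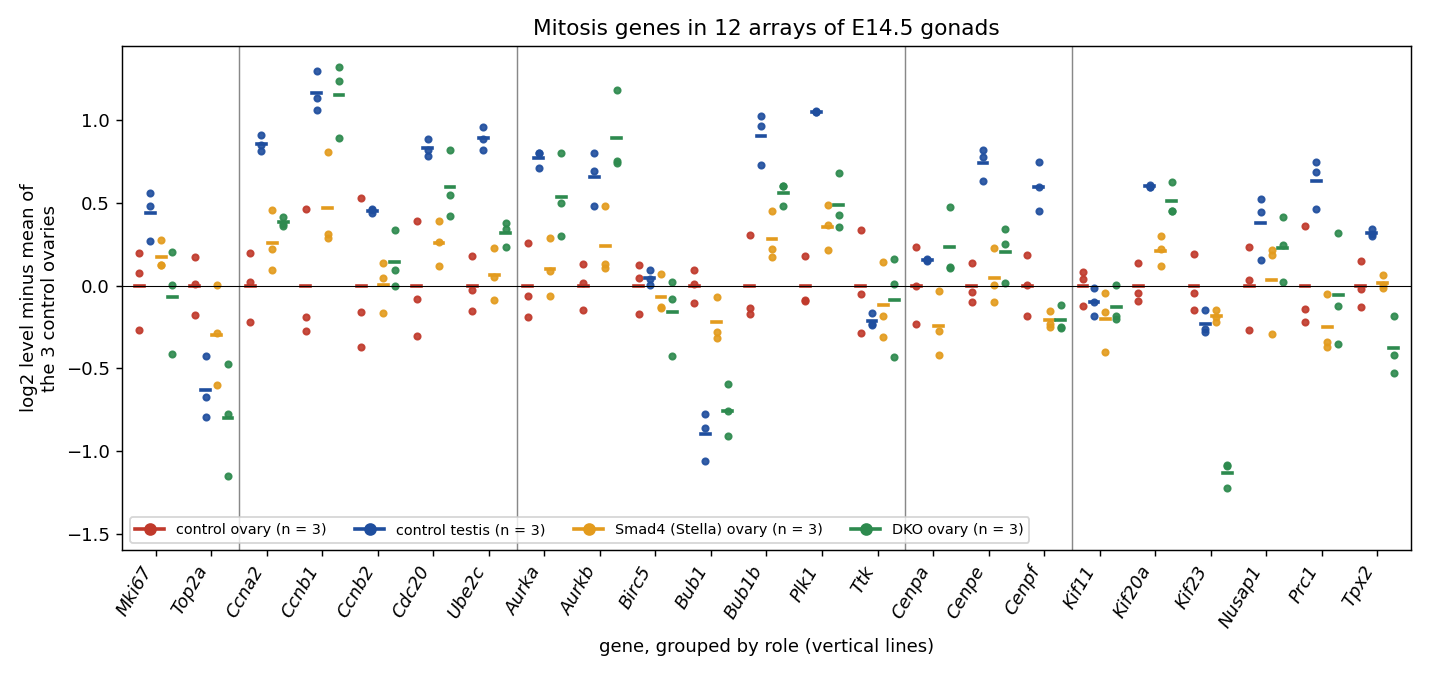
Log2 level of each of the 23 mitosis genes in every array (points) minus the mean of the 3 control ovaries of that gene, with horizontal bars at group means (n = 3 each) and vertical lines between roles. For 16 of the 23 genes the mean was highest in control testes, which was not counted over all genes, and *Kif23* was lowest in the 3 DKO ovaries.

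Replication genes showed no common direction in testes against ovaries. *Lig1*, the ligase that seals Okazaki fragments, was at 4.33, 4.35 and 4.40 in testes and at 5.24, 5.02 and 4.93 in ovaries, without overlap and with a log2 fold change of -0.70 (standard error 0.11, limma adjusted p = 0.000393). *Rfc4*, a subunit of the clamp loader, and *Gmnn* had -0.55 and -0.53, past the adjusted p but under 1.5-fold. *Mcm7*, a subunit of the helicase, was at 4.64, 4.73 and 4.74 in testes and at 4.49, 3.77 and 3.89 in ovaries, a log2 fold change of 0.65 (standard error 0.16, limma adjusted p = 0.00693). *Rrm1*, the large subunit of ribonucleotide reductase, was at 3.40, 3.43 and 3.41 in testes and at 3.14, 2.64 and 2.67 in ovaries, with 0.60 (standard error 0.14, limma adjusted p = 0.00468). For both of these genes control ovary 1 lay near the testes and the other 2 ovaries lay well below. The calls of *Mcm7* and *Rrm1* held in 10 and 8 of 17 alternatives, and both were lost, among others, without control ovary 2 or 3. Without the filter on dim probes *Rrm1* turned to -0.19. *Pcna*, *Fen1*, *Rrm2* and *Mcm4* had log2 fold changes from -0.04 to 0.02.

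The calls were recomputed without control ovary 1, which gave 14 called mitosis genes, *Top2a* not among them. Then 4 replication genes were called higher (*Mcm7*, *Rrm1*, *Tyms* and *Cdc6*) and 1 lower (*Lig1*), where 16.6% of all genes were called higher and 18% lower. Without control ovary 2, and likewise without control ovary 3, 0 were called higher by limma and 3 lower, *Lig1*, *Gmnn* and *Rfc4*, where 33.9% and 32.7% of all genes were called in either direction. Within slide 1, where the 3 testes met control ovary 1 alone, the median log2 difference was -0.22 over the replication genes and 0.46 over the mitosis genes, with *Mcm7* at 0.21 and *Rrm1* at 0.28. All 14 mitosis genes called in the full model kept their sign there, and 10 of them were past 1.5-fold. With the slide as a block 9 mitosis genes were called, 8 higher and 1 lower, and 3 replication genes were called lower, *Lig1*, *Gmnn* and *Rfc4*, while the calls of *Mcm7* and *Rrm1* were lost. In that fit 18.3% of all genes were called higher and 15.3% lower.

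Genes of other cells also differed between these gonads. Of 7 Sertoli genes 7 were higher in testes, with a summed signal of 58.0 to 63.9 times the 75th percentile in testes and 3.30 to 3.84 in control ovaries. Of 4 fetal Leydig genes 4 were higher, with 63.3 to 71.7 in testes and 1.93 to 2.71 in ovaries. Of 6 pregranulosa genes 6 were lower, with 13.0 to 16.04 in testes and 66.9 to 79.7 in ovaries. Of 8 genes of meiotic entry 8 were lower, with 6.33 to 7.69 and 205 to 237, and of 6 erythroid genes 4 were lower, with 181 to 213 and 274 to 352. Of 8 germ cell genes 4 were higher and 2 lower, with 58.4 to 72.1 in testes and 65.4 to 79.7 in ovaries. The part of these differences in the mitosis genes was not tested.

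Wider lists of the same pathways were also chosen with results of these data known. Of all genes, 17.2% were called higher and 16.8% lower. Of 40 other mitosis genes 8 were higher, near that share, and 4 lower, and of 40 other replication genes 5 were higher and 12 lower. Of the former, *Cdc25c*, the phosphatase that activates the cyclin B kinase, had a log2 fold change of 1.44, *Ncaph*, a condensin subunit, had 1.20, and *Cdk1*, that kinase itself, had 1.11. Of the latter, *Asf1b*, a histone chaperone, had -2.16, *Orc1*, a subunit of the origin recognition complex, had -1.71, and *Gins3*, a subunit of the replicative helicase, had -1.01. All 6 were called by limma.

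*Smad4 (Stella)* ovaries, which ask what loss of *Smad4* in germ cells did, gave no called gene among these against control ovaries. None of the 16 replication genes and none of the 23 mitosis genes were called by limma, 0 of 39, where 0.271% of all genes were called in either direction. At an unadjusted p under 0.05 in limma there was 1 gene in each group, while 19.7% of all genes passed it. The methods' t-test gave 0 replication genes and 1 mitosis gene at that level, but its share of all genes was not counted. The median log2 fold change was 0.04 over the replication genes, 0.04 over the mitosis genes and -0.02 over all genes.

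The smallest p among the replication genes belonged to *Mcm7*, at 4.66, 4.54 and 4.51 in *Smad4 (Stella)* ovaries and 4.49, 3.77 and 3.89 in control ovaries, a log2 difference of 0.52 (standard error 0.16, limma adjusted p = 0.135). The arrays did not overlap, but control ovary 1 lay just below the lowest *Smad4 (Stella)* ovary. Without control ovary 1, *Mcm7* was the 1 member that was called, with 0.74 (adjusted p = 0.045 from limma). The share of all genes called in that fit is not given here, so this 1 call has no background beside it. *Rfc4*, which was at 0.14 with no scaling between arrays, had -0.29 (adjusted p = 0.255 from limma), and *Mcm2* had 0.29 (adjusted p = 0.258). Among the mitosis genes, *Plk1* had 0.35 (standard error 0.12, limma adjusted p = 0.158), *Ccnb1* 0.47 (adjusted p = 0.258) and *Kif20a* 0.21 (adjusted p = 0.261). *Kif23*, *Lig1* and *Bub1* had -0.19, -0.23 and -0.22, and with no scaling between arrays, where the median of all genes was 0.40, they had 0.24, 0.20 and 0.21. Of 40 other replication genes and 40 other mitosis genes, 0 were called by limma. At an unadjusted p under 0.05 there were 9 and 5, while 19.7% of all genes passed it. Slide 3 held all 3 *Smad4 (Stella)* ovaries and no control, so no comparison within a slide could be had.

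DKO ovaries, which lacked *Stra8* as well, differed from control ovaries in 9 of the 39 genes, in both directions. Of the mitosis genes 3 were called higher (*Ccnb1*, *Aurkb* and *Cdc20*) and 3 lower (*Kif23*, *Top2a* and *Bub1*). Of the replication genes 1 was called higher (*Mcm7*) and 2 lower (*Lig1* and *Rfc4*). Of all genes, 6.68% were called higher and 7.98% lower. The median log2 fold change was 0.20 over the mitosis genes and 0.05 over the replication genes, with 0.00376 over all genes. DKO ovaries and control testes were each set against the same 3 control ovaries, so that their fold changes are not independent of each other.

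*Kif23*, a kinesin of the central spindle that is needed for cytokinesis, had the lowest log2 fold change. It was at 0.12, -0.01 and 0.12 in DKO ovaries and at 1.40, 1.16 and 1.06 in control ovaries. In *Smad4 (Stella)* ovaries it was at 1.02, 1.06 and 0.98, and in control testes at 0.94, 1.06 and 0.93. The 3 DKO arrays were below the 9 others, which spanned 0.93 to 1.40. Its log2 fold change was -1.13 (standard error 0.10, limma adjusted p = 5.48e-05) against control ovaries, -0.94 (adjusted p = 0.000416) against *Smad4 (Stella)* ovaries and -0.90 (adjusted p = 8.97e-05) against control testes. In the deposited table without scaling between arrays the calls against control ovaries and testes were lost, with -0.95 and -0.78, while that against *Smad4 (Stella)* ovaries stayed. It had 2 probes, both across exon junctions of the same transcript, and they gave -1.15 and -1.11 against control ovaries. Within slide 2 the difference from control ovaries was -1.05, and within slide 3 the difference of DKO ovary 3 from the *Smad4 (Stella)* ovaries was -0.90. The probes are printed because the level of this gene set the DKO ovaries apart from every other group. Both lie on the minus strand of mm9, the first at chr9:61767492-61767732 and the second at chr9:61767733-61768853, which with their 60 letters are split by introns.
Kif23 first probe: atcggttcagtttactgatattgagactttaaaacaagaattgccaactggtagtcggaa
Kif23 second probe: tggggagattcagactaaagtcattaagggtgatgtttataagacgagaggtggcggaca

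**Figure D3:**
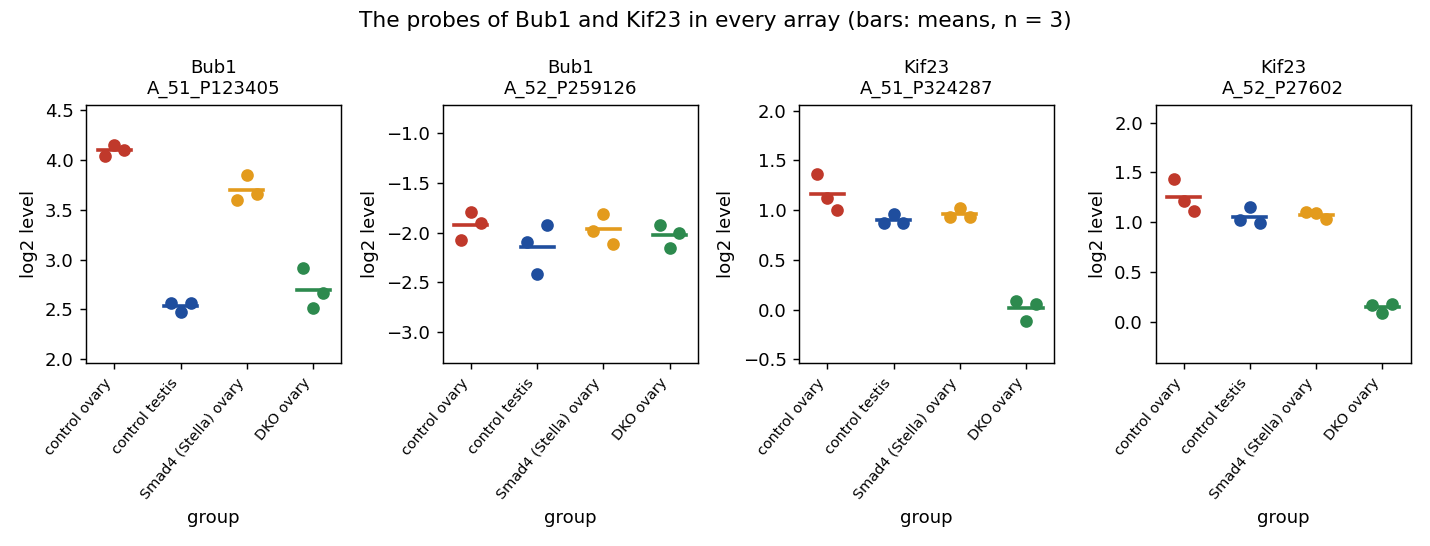
Log2 level of the 2 probes of *Bub1* (left) and the 2 probes of *Kif23* (right) in every array, with bars at group means (n = 3 each) and axes of equal span. Both *Kif23* probes were lowest in DKO ovaries, whereas 1 of the 2 *Bub1* probes separated control testes and DKO ovaries from the other groups and the other did not.

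Of the genes called higher, *Ccnb1* was at 1.41, 1.33 and 0.98 in DKO ovaries against 0.56, -0.18 and -0.10 in control ovaries, which gave 1.15 on the log2 scale (standard error 0.21, limma adjusted p = 0.00332). All DKO ovaries were above all control ovaries. Its 3 probes gave 1.14, 1.08 and 1.23. *Aurkb* was at 1.67, 1.23 and 1.25 against 0.51, 0.35 and 0.63, with 0.89 (standard error 0.16, limma adjusted p = 0.00243). *Cdc20* was at 5.34, 4.95 and 5.07 against 4.91, 4.22 and 4.45, with 0.59 (standard error 0.17, limma adjusted p = 0.0307). Control ovary 1 was close to the DKO ovaries for *Cdc20*, and this call held in 7 of 17 alternatives. Among others, it was lost without control ovary 2 or 3 or without DKO ovary 1 or 3. *Plk1*, *Bub1b*, *Aurka* and *Kif20a* had 0.49 to 0.56, past the adjusted p but under 1.5-fold.

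*Bub1* was at 0.50, 0.18 and 0.33 in DKO ovaries against 0.99, 1.18 and 1.101 in control ovaries, with -0.75 (standard error 0.12, limma adjusted p = 0.00139). As for the testes, 1 probe carried the difference, with -1.40 (adjusted p = 3.13e-05 from limma over probes) against -0.10 (adjusted p = 0.665) for the other. *Top2a* was at -0.50, 0.18 and -0.13 against 0.66, 0.82 and 0.47, without overlap and with -0.80 (standard error 0.20, limma adjusted p = 0.0163). Its 2 probes gave -0.67 and -0.93, and the call held in 9 of 17 alternatives. Among others, its adjusted p missed the threshold without control ovary 2 or with the slide as a block, with log2 fold changes of -0.71 and -0.81.

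Of the replication genes, *Mcm7* was at 4.74, 4.76 and 4.86 in DKO ovaries, above the 4.49, 3.77 and 3.89 of the control ovaries, with 0.74 (standard error 0.16, limma adjusted p = 0.00819). Its call held in 12 of 17 alternatives. *Lig1* was at 4.46, 4.22 and 4.41, below 5.24, 5.02 and 4.93, with -0.70 (standard error 0.11, limma adjusted p = 0.00116). *Rfc4* was at 4.04, 3.67 and 3.999, below 4.72, 4.41 and 4.34, with -0.59 (standard error 0.13, limma adjusted p = 0.00913). The *Rfc4* call held in 8 of 17 alternatives and was lost, among others, without control ovary 1, without DKO ovary 2 or with the slide as a block. The helicase subunits did not move as one, since *Mcm2* had 0.54 and *Mcm5* had -0.48, both past the adjusted p but under 1.5-fold, and *Mcm4* had 0.03 and *Mcm6* 0.07. *Cdt1* had 0.56, past the adjusted p.

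**Figure D4:**
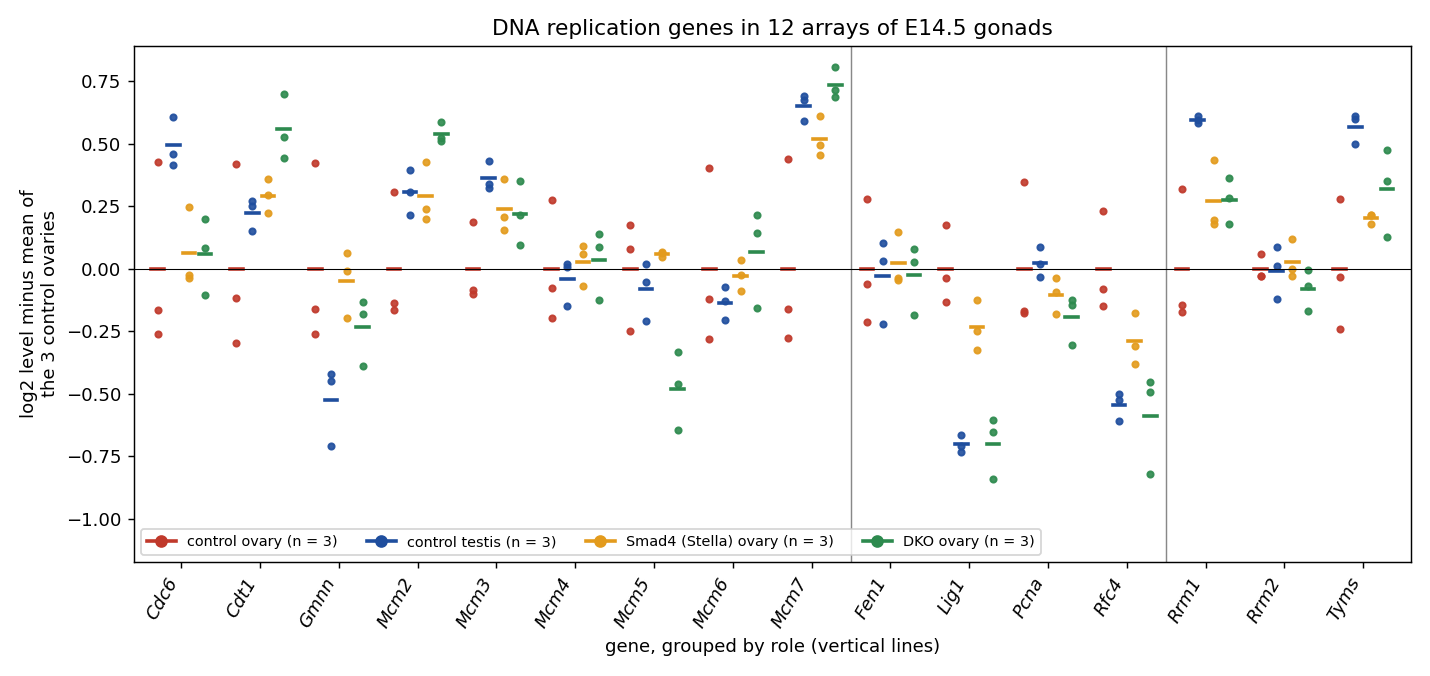
Log2 level of each of the 16 replication genes in every array (points) minus the mean of the 3 control ovaries of that gene, with bars at group means (n = 3 each) and vertical lines between roles. The highest of the 3 control ovary points was control ovary 1 for all 16 genes.

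Without control ovary 1, 12 of the 39 genes were called in DKO ovaries: *Mcm2*, *Mcm7* and *Cdt1* higher and *Lig1* lower among the replication genes, and *Aurkb*, *Bub1b*, *Aurka*, *Ccnb1* and *Cdc20* higher and *Top2a*, *Kif23* and *Bub1* lower among the mitosis genes. In that fit 6.79% of all genes were called higher and 8.58% lower. Within slide 2, which held 2 arrays of each group, the 9 genes called in the full model kept their signs, and 8 of them were past 1.5-fold. Of the gene lists for other cells, 0 of 7 Sertoli genes, 0 of 6 pregranulosa genes and 0 of 4 fetal Leydig genes were called by limma in DKO against control ovaries, with 0, 1 and 0 at an unadjusted p under 0.05. Of all 18835 genes, 3247 were higher and 3222 lower at that unadjusted p. Of 8 genes of meiotic entry 7 were lower, with a summed signal of 70.8 to 94.3 in DKO ovaries and 205 to 237 in control ovaries, and 1 of 6 macrophage genes was higher, with 3.02 to 5.51 and 2.50 to 3.07. Of 6 erythroid genes 1 was lower, with 209 to 225 in DKO ovaries. Of 8 germ cell genes 4 were higher and 1 lower, with a summed signal of 72.3 to 97.4 in DKO ovaries and 65.4 to 79.7 in control ovaries. The part of these lists in the member genes was not tested.

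Against the shares of 6.68% of all genes called higher and 7.98% lower in DKO ovaries stand the wider lists. There, 6 of 40 other mitosis genes were higher and 2 lower, and 3 of 40 other replication genes were higher and 4 lower. *Asf1b*, *Gins3* and *Orc1* had the largest folds of the latter, with -1.92, -1.63 and -0.85. Of the former, *Mybl2*, a transcription factor of cycling cells, had 1.14, *Kif18a*, a motor that trims kinetochore microtubules, had -0.95, and *Cdc25c* had 0.87. All 6 were called by limma.

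**Figure D5:**
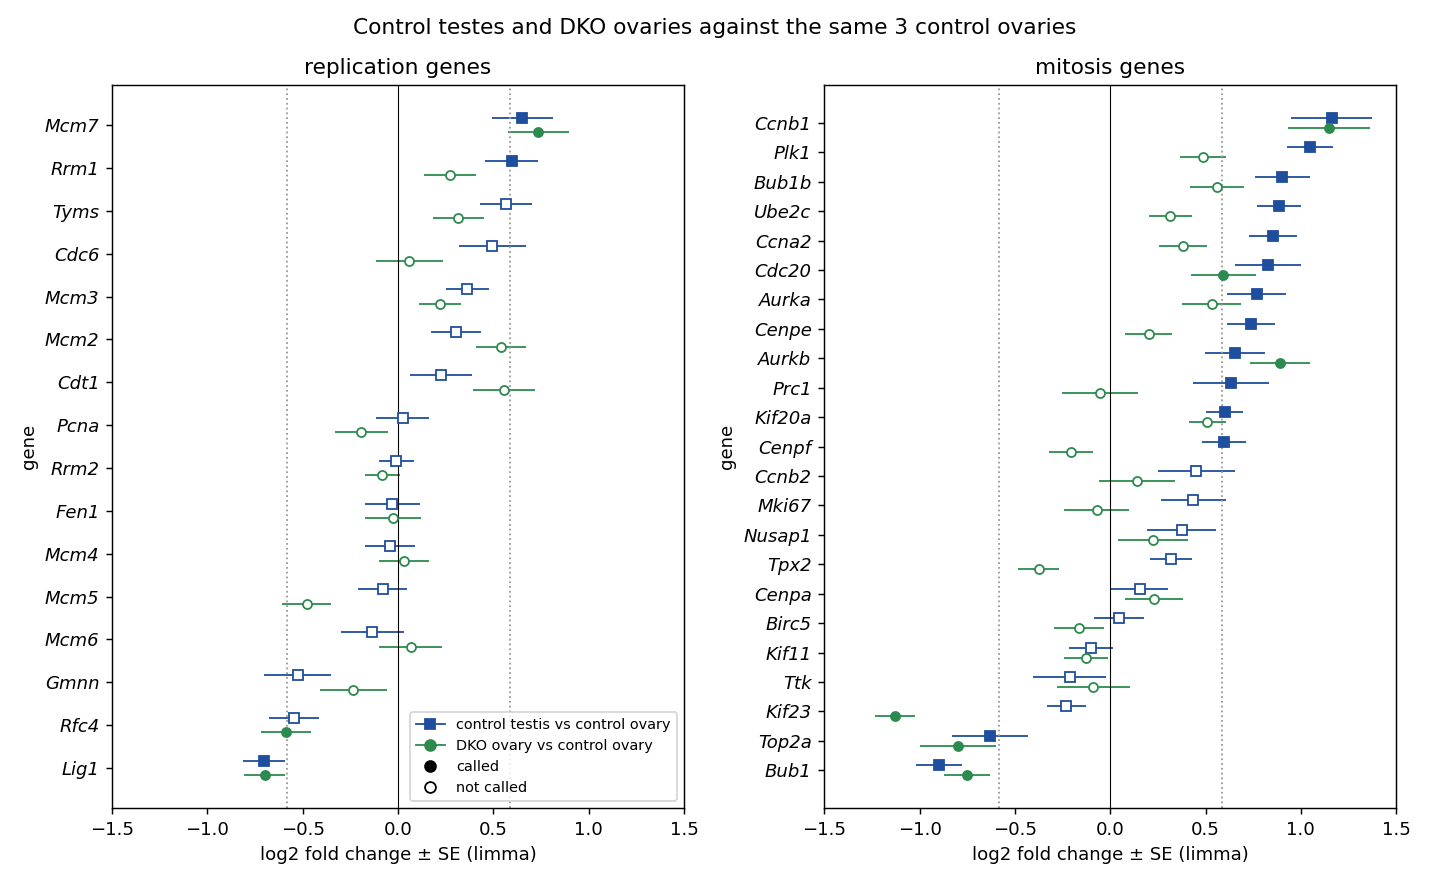
Log2 fold change ± SE from limma of each member in control testes (squares) and DKO ovaries (circles), both against the same 3 control ovaries, with filled symbols for called genes and dotted lines at 1.5-fold. Of the mitosis genes 14 were called in testes and 6 in DKO ovaries, and *Kif23* was at -0.23 in testes and -1.13 in DKO ovaries.

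DKO ovaries were also set against *Smad4 (Stella)* ovaries, which differed from them in *Stra8* genotype, with no control ovary in the contrast. DKO ovaries 1 and 2 lay on another slide than the *Smad4 (Stella)* ovaries, so *Stra8* genotype and slide cannot be fully told apart. Of the mitosis genes 1 was called higher and 1 lower, where 4.37% of all genes were called higher and 4.07% lower. These were *Aurkb*, at 1.67, 1.23 and 1.25 in DKO ovaries and 0.97, 0.60 and 0.62 in *Smad4 (Stella)* ovaries, with 0.65 (standard error 0.16, limma adjusted p = 0.0231), and *Kif23*, with the -0.94 given above. The *Aurkb* call held in 7 of 17 alternatives. Among others, it was lost without DKO ovary 1 or without *Smad4 (Stella)* ovary 2 or 3, with log2 fold changes from 0.51 to 0.60, and with the slide as a block. *Bub1* had -0.53 (adjusted p = 0.018 from limma) and *Tpx2*, a spindle assembly factor, had -0.39 (adjusted p = 0.0428), both under 1.5-fold. *Bub1* was called without DKO ovary 1, with -0.61.

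Of the replication genes 0 were called by limma in this contrast, with 3 at an unadjusted p under 0.05 in limma, which 26.4% of all genes passed. The methods' t-test gave 5 at that level, but its share of all genes was not counted. *Mcm5* was at 3.03, 3.21 and 3.34 in DKO ovaries and 3.74, 3.73 and 3.72 in *Smad4 (Stella)* ovaries. The groups did not overlap, and the log2 difference of -0.54 (standard error 0.13, limma adjusted p = 0.022) was under 1.5-fold. It was called without DKO ovary 3, with -0.61. *Lig1* had -0.47 (standard error 0.11, limma adjusted p = 0.0198) and *Rfc4* -0.30 (SE 0.13, adjusted p = 0.178). Of 8 genes of meiotic entry 6 were lower in DKO ovaries, with a summed signal of 70.8 to 94.3 against 162 to 192 in *Smad4 (Stella)* ovaries. Of 8 germ cell genes 4 were higher, with 72.3 to 97.4 against 55.5 to 64.2. The part of these lists in the member genes was not tested. Of the wider lists, 2 of 40 other replication genes were lower, *Asf1b* with -1.58 and *Gins3* with -1.34. Another 2 of 40 other mitosis genes were higher and 2 lower, where 4.37% of all genes were called higher and 4.07% lower. Among these mitosis genes were *Mybl2* with 0.84, *Kif18a* with -0.75 and *Cdkn3*, a phosphatase of cyclin-dependent kinases, with -0.72.

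DKO ovaries were last set against control testes. Of 23 mitosis genes 4 were called lower and 0 higher, where 12.7% of all genes were called higher and 13% lower. At an unadjusted p under 0.05 in limma, 0 were higher and 10 lower, which 23% and 23.6% of all genes were. With the slide as a block 1 mitosis gene was called higher, *Ttk* with 0.80, and 4 lower, *Cenpe*, *Cenpf*, *Kif23* and *Mki67*, where 9.52% of all genes were called higher and 11.7% lower. Genes of other cells differed too: 7 of 7 Sertoli and 4 of 4 fetal Leydig genes were lower in DKO ovaries, and 6 of 6 pregranulosa and 8 of 8 meiotic entry genes were higher. Their part in the member genes was not tested. *Cenpf* was at -0.72, -0.71 and -0.57 in DKO ovaries and 0.28, -0.01 and 0.14 in testes, with -0.80 (standard error 0.12, limma adjusted p = 0.000403). Its call was lost with normexp, with -0.32, with the deposited table, and with the brightest of its probes. *Tpx2* was at 0.73, 0.84 and 1.08 against 1.57, 1.56 and 1.60, with -0.69 (standard error 0.11, limma adjusted p = 0.00073). *Prc1*, a protein that bundles the microtubules of the central spindle, was at 3.86, 3.19 and 3.42 against 4.004, 4.29 and 4.23, with -0.69 (standard error 0.20, limma adjusted p = 0.0206). This call held in 8 of 17 alternatives and was lost, among others, without control testis 2 or 3 or without DKO ovary 2 or 3. With the slide as a block *Prc1* was at -0.11 and *Tpx2* at -0.57, under 1.5-fold. The fourth was *Kif23*, with the -0.90 given above. *Ccnb1* had -0.01 (standard error 0.21, limma adjusted p = 0.965), an estimate near 0 whose error does not show equal levels, and with the slide as a block it had 0.81 (adjusted p = 0.067).

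Of the replication genes 0 were called by limma against testes, with 3 at an unadjusted p under 0.05, which 46.6% of all genes passed, namely *Mcm5* with -0.40 (adjusted p = 0.032), *Cdc6* with -0.43 (adjusted p = 0.0744) and *Rrm1* with -0.32 (adjusted p = 0.0908). With the slide as a block 5 were called, all higher in DKO ovaries, as were 9.52% of all genes in that fit: *Mcm7* with 0.71, *Mcm2* with 0.71, *Gmnn* with 0.90, *Cdt1* with 0.97 and *Mcm6* with 0.77. In that fit *Cdc6* was at 0.13 and *Rrm1* at 0.11. The testes lay on slide 1 and the DKO ovaries on slides 2 and 3, so the blocked fit tied them together through control ovary 1, the sample that stood apart above. Without a block, 12.7% of all genes were called higher and 13% lower. In the wider lists 1 of 40 other mitosis genes was then higher and 4 lower. The largest folds were those of *Cdk1* at -0.79, *Racgap1*, a partner of *Kif23* in the central spindle, at -0.78 and *Tacc3*, a spindle protein, at -0.72. Of 40 other replication genes 4 were higher and 3 lower, with *Orc1* at 0.86, *Tk1* (thymidine kinase) at -0.81 and *Pola1*, the catalytic subunit of polymerase alpha, at 0.76.

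Over the 4 groups, the highest group mean was that of control testes for 16 of 23 mitosis genes, of control ovaries for 5 and of DKO ovaries for 2. For the 16 replication genes it was control testes for 5, DKO ovaries for 5, *Smad4 (Stella)* ovaries for 3 and control ovaries for 3. The lowest mean among mitosis genes was most often that of control ovaries, for 12 of 23. Highest and lowest groups were not counted over all genes, so these counts have no background beside them. For *Ccnb1* the order was testes, DKO ovaries, *Smad4 (Stella)* ovaries and control ovaries, in which the first 2 did not differ beyond their spread.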

How the data were processed

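RNA of E14.5 gonads, 200 ng per sample, was hybridised to single-colour Agilent Whole Mouse Genome arrays, 3 per group. The authors deposited the output of Feature Extraction 11.0.1.1, named in the file headers, whose processed intensity is corrected for background within an array and not scaled between arrays, and a file of the same intensities rounded to 3 significant digits. Probe coordinates are those of the array design on mm9. The deposited intensities were put on the log2 scale and the 75th percentile of the array, taken without control spots, was subtracted. Spots marked as outliers were dropped and the rest averaged by probe. Probes entered if all 3 arrays of some group had them well above background (27299 of 41174 probes). Probes were named by the array's accessions through RefSeq, which matched 27050 probes, and otherwise by the name on the array, and probes of a gene were averaged. No spot was saturated, 0 in all, and the number of arrays limits the precision.

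Groups came from the labels. Each array came from its own pair of gonads, so p-values measure the spread between arrays of a group. In control ovaries this spread also holds differences of genotype and slide, and the fit shares it with all groups. All 12 arrays were fitted in 1 limma model (version 3.58.1) without a block. The scripts ran under R 4.3.3 with the data.table package. Replicate numbers were not stated to pair the samples. Same-numbered arrays had correlated deviations (r over 0.1) in 2 of 18 pairs. Arrays of different numbers were not compared in this way, so the check cannot settle whether samples were paired. With 3 arrays against 3, an exact permutation test cannot go below p = 0.1 and was not used. The members and all gene lists were chosen with earlier results of these data known. Named members were all that were called in a comparison, or the 5 with the largest fold in each group of genes where over 10 were called, and the 3 with the smallest p where fewer than 3 were called. Of the wider lists the 3 called genes with the largest fold were named. Other members were named after their values were seen, for their role. Promoter windows and symbols were those of RefSeq on GRCm38.p6, and motif matches were counted without a test. The model was tested on simulated data with 100 genes changed 4-fold and 100 changed 2-fold in each comparison. It recovered 83 to 92 of the former and 59 to 70 of the latter, with 4 to 14 false calls, so that in this setting 2-fold differences were often missed. No other gene of the 18803 was changed, and no effect of slide or genotype was put in. The recovery therefore does not carry over to comparisons in which many more genes were called. Alternatives were quantile normalization, the deposited table without scaling, normexp with an offset of 50, no filter on dim probes, the brightest probe, a block for the slide or for the replicate number, only the 2 groups compared, other call rules, the t-test that the methods name, and leaving out each array. Fits of single probes and differences within a slide were added after seeing the data.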

Additional observations from a re-analysis of the deposited data

How the results depend on the processing

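Counts of called members, out of 16 replication and 23 mitosis genes, kept within 1.5 times of their value under quantile normalization in all 5 comparisons, and the replicate block left them at 3 and 14 (testes against control ovaries), 0 and 0 (*Smad4 (Stella)* against control ovaries), 3 and 6 (DKO against control ovaries), 0 and 2 (DKO against *Smad4 (Stella)* ovaries) and 0 and 4 (DKO ovaries against testes), so that it changed no count. For testes against control ovaries, replication genes moved from 3 to 0 with the deposited table without scaling, 8 with no fold limit, 0 at 2-fold and 1 by the methods' t-test, and mitosis genes from 14 to 6 with the deposited table, 9 with normexp, 9 with the slide block and 2 at 2-fold. For DKO against control ovaries, replication genes moved from 3 to 0 with the deposited table, 1 with normexp, 1 with only the 2 groups, 6 with no fold limit, 0 at 2-fold and 0 by the methods' t-test, and mitosis genes from 6 to 1 with the deposited table, 11 with no fold limit, 2 at 2-fold and 2 by the methods' t-test. For DKO against *Smad4 (Stella)* ovaries, replication genes moved from 0 to 2 with no fold limit, and mitosis genes from 2 to 1 with the deposited table, normexp, no filter on dim probes, the slide block, only the 2 groups and the methods' t-test, to 4 with the brightest probe and with no fold limit, and to 0 at 2-fold. For DKO ovaries against testes, replication genes moved from 0 to 1 with the brightest probe, 5 with the slide block and 1 with no fold limit, and mitosis genes from 4 to 0 with the deposited table, 2 with normexp, 9 with no fold limit and 0 at 2-fold. With no fold limit, 4572 of all 18835 genes passed as higher in testes than in control ovaries and 4393 as lower. In DKO ovaries against control ovaries, 2038 were higher and 2186 lower. The numbers were 1113 and 1124 against *Smad4 (Stella)* ovaries, and 3513 and 3514 against testes. For the other alternatives, shares of all genes are given only where stated above, so the remaining counts show only how the calls moved. Leaving out 1 array at a time gave 3 to 5 and 10 to 14, 0 to 1 and 0 to 0, 3 to 4 and 4 to 8, 0 to 1 and 1 to 3, and 0 to 0 and 3 to 6, in the same order, with the highest counts against control ovaries reached without control ovary 1 and the lowest mitosis counts in testes and DKO ovaries without control ovary 2. Of 195 pairs of a member and a comparison, 92 took the other sign under at least 1 alternative, and of the 32 called pairs 1 did. Directions turned, among others, for *Rrm1* in testes against control ovaries without the dim filter (-0.19), *Rfc4*, *Kif23*, *Lig1* and *Bub1* in *Smad4 (Stella)* ovaries with the deposited table (0.14, 0.24, 0.20 and 0.21), and *Cdc6* (0.13), *Rrm1* (0.11) and *Ccnb1* (0.81) in DKO ovaries against testes with the slide block. *Ccnb2* and *Cenpa* in testes (both -0.08 with the slide block) and *Mcm4* in DKO against control ovaries (-0.47 without the dim filter) also turned. The deposited table moved the median of all genes to 0.40 in *Smad4 (Stella)* and 0.19 in DKO against control ovaries and to -0.23 between these mutants, and normexp moved it to 0.12, 0.26, 0.28 and 0.17 in the comparisons other than *Smad4 (Stella)* against control ovaries. Apart from the alternatives named, the cause of these moves was not tested. *Bub1* rests on 1 of its 2 probes, and slides and groups are only partly crossed.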
